A study of Schizosaccharomyces pombe with 15 samples.

Results

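The 3′ ends described here are those in which the constant part of U6 small nuclear RNA was followed by a run of 7 or more Us, then by zero or more As and nothing else. They were found by that letter pattern alone, over 19 files of end counts from 15 fission yeast libraries, and number 47 of the 77768 distinct end sequences listed. Together they hold 581815 of 22706490 reads, or 2.56%. Because the gene encodes a run of 9 Ts, the 31 ends with 7 to 9 Us, a run that the gene can encode, were kept apart from the 16 ends with 10 or more Us, a run longer than the encoded one, which hold 2785 reads.

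U6 is made by RNA polymerase III, which stops within a run of Ts, so that a fresh U6 transcript ends in a tail of Us of variable length. Mpn1, whose human counterpart is USB1, is a 3′ to 5′ exonuclease that shortens this tail, Rrp6 is a 3′ exonuclease of the nuclear exosome, and Cid14 is a poly(A) polymerase that marks nuclear RNA for the exosome. Cid11, Cid12 and Cid16 belong to the same family of nucleotidyltransferases as Cid14. A long U tail is therefore of interest as the state nearest to the untrimmed transcript, and an A after it as an addition that the gene does not encode.

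All RNA came from Schizosaccharomyces pombe growing logarithmically in rich YES medium, was ligated at its 3′ end to an adapter and was amplified from U6 (3′ RACE). One library was made per group: wild type (wt), mpn1Δ, rrp6Δ, cid14Δ, cid11Δ, cid12Δ, cid16Δ and the double deletions mpn1Δrrp6Δ and cid14Δmpn1Δ. Wild type and rrp6Δ were also prepared without PNK, an enzyme that removes 3′ phosphates that would block adapter ligation. All other libraries were PNK treated. The remaining 4 strains carried a tagged U6 gene, wild type (tU6-wt, mpn1Δ tU6wt) or with the change labelled C36A (tU6-C36A, mpn1Δ tU6-C36A), with and without mpn1, and each gave a file for endogenous and a file for tagged U6. The sources used here do not give how the tagged gene is driven, or from which base the position of the change is counted. Files held 408281 to 3966962 reads with an end sequence. Reads holding an undetermined base (N) set libraries apart. They made up 0.0217% to 0.0244% of reads in cid16Δ, cid12Δ, cid11Δ and the wt library prepared without PNK, all of which carry mpn1. They made up at most 0.000142% in the other 7 untagged libraries, and 0.00249% to 0.00598% in the files of the tagged strains. Comparisons between these sets therefore differ in set as well as in treatment or genotype, and the libraries with and without mpn1 are spread unevenly over them.

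The run itself is shown first because its length decides which ends can be encoded. In the RefSeq assembly ASM294v3, snu6 lies on chromosome I from 2562276 to 2562419, on the minus strand. One A and then 9 Ts, at 2562266 to 2562274, follow the annotated gene, and the next base is C. The strand of the gene is printed with the T run in capitals.
snu6 3′ end, I:2562236-2562304, minus strand: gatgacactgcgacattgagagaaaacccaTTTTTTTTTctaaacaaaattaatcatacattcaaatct
The ends that carry the results are printed as read, as DNA, with the U run in capitals and added As in lower case. The runs of 7 and 8 Us are the commonest, with and without A, and the last pair straddle the encoded limit.
7 Us: TTTTTTT
7 Us and 1 A: TTTTTTTa
7 Us and 2 As: TTTTTTTaa
8 Us: TTTTTTTT
8 Us and 1 A: TTTTTTTTa
9 Us: TTTTTTTTT
10 Us: TTTTTTTTTT
As the base after the run is C, an A after a U run of any length is not encoded in this reference.

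Of the 47 ends, 4 were found in all 19 files (7 Us plain, 7 Us with 1 A, 8 Us plain and 9 Us plain) and 11 in a single file. Files listed between 7 (the endogenous files of tU6-wt and tU6-C36A) and 38 (cid12Δ) of them. Shares of 7 to 9 Us ran from 0.891% of reads in cid11Δ to 7.59% in the endogenous file of mpn1Δ tU6wt, with a median of 2.69%. Shares of 10 or more Us ran from 0.000105% to 0.0968%, with a median of 0.00630%. Long ends are thus a minor class everywhere, and those beyond the encoded length are rarer still. Just outside the limit, ends with 6 Us made up 6.43% to 42.6% of reads, with a median of 18.6%. A further 0.0361% to 0.526% of reads per file had 7 or more Us followed by other bases and were not counted.

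Reads became fewer from 7 to 10 Us in wt. There, runs of 7, 8, 9 and 10 Us, tailed or plain, held 1.92%, 0.202%, 0.0177% and 0.00582% of reads. The longest run in wt had 13 Us, and the longest in the series had 20 Us, a single read in wt without PNK. That end is TTTTTTTTTTTTTTTTTTTT. Only 6 of the 47 ends reached 0.1% of reads in any file. The plain run of 7 Us did so in 19 files, the plain run of 8 in 16 and 7 Us with 1 A in 13. The run of 8 Us with 1 A did so in 3 untagged libraries, all without mpn1, at 0.153% in mpn1Δ, 0.101% in mpn1Δrrp6Δ and 0.102% in cid14Δmpn1Δ. The run of 7 Us with 2 As reached 0.138% in mpn1Δ and 0.201% in the tagged file of mpn1Δ tU6-C36A. The plain run of 9 Us, the whole encoded run, reached 0.1001% in wt without PNK and 0.248% in tagged U6 of tU6-wt. The commonest end with 10 or more Us was the plain run of 10 in 15 files, the plain run of 11 in 3 and the plain run of 12 in 1.

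Ends with 7 to 9 Us and their A tails differed between libraries with and without mpn1. With mpn1 deleted, the 5 shares of 7 to 9 Us were 4.38% in mpn1Δ, 2.52% in mpn1Δrrp6Δ, 2.69% in cid14Δmpn1Δ, and 7.59% and 2.70% in the endogenous files of mpn1Δ tU6wt and mpn1Δ tU6-C36A. The 8 PNK-treated libraries with mpn1 ran from 0.891% through a median of 1.92% to 2.77%. These 2 sets overlapped, since 3 of the 5 deleted libraries lay below the highest library with mpn1. The mean was 2.10-fold higher on the log2 scale without mpn1 (two-sided exact permutation test over libraries, p = 0.0132, 0.0264 after Benjamini-Hochberg adjustment over 4 outcomes). By the same exact permutation test, that call was lost without cid11Δ, cid12Δ and cid16Δ (log2 difference 0.65, p = 0.0714) and without mpn1Δ tU6wt (log2 difference 0.81, p = 0.0505). Within pairs of the same background the share was higher in 4 of 5, by 2.05-fold against wt, 1.09-fold against rrp6Δ, 1.57-fold against cid14Δ and 2.82-fold against tU6-wt. Against tU6-C36A it was 0.977-fold. The exact sign-flip test over these pairs gave p = 0.125, where the smallest possible is 0.0625.

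The A tails of these ends differed more widely. Of ends with 7 to 9 Us, 68.0%, 63.5%, 61.1%, 62.0% and 73.6% carried 1 or more As in mpn1Δ, mpn1Δrrp6Δ, cid14Δmpn1Δ and the endogenous files of mpn1Δ tU6wt and mpn1Δ tU6-C36A. In the 8 libraries with mpn1, this A-tailed fraction ran from 0.465% through a median of 5.73% to 35.4% in rrp6Δ. The 2 sets did not overlap, with means of 65.7% ± 5.17 (SD, n = 5) and 10.9% ± 12.2 (SD, n = 8) and a difference of 54.8 percentage points. The exact permutation test gave p = 0.000777, the smallest that 1287 regroupings allow, and 0.00311 after adjustment. It was higher in 5 of 5 background pairs, by 50.3 ± 13.5 points (SD, n = 5 pairs, exact sign-flip p = 0.0625, the smallest possible, 0.167 adjusted). The strains are single libraries of different genotypes, so the spread behind these tests is that among strains, not among cultures of a strain.

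Plain and A-tailed long ends differed in their relation to mpn1. Summed over 7 to 9 Us, the A-tailed share without mpn1 was 1.95-fold to 375-fold that with mpn1 in the same background, and above it in 5 of 5 pairs. The plain share was 0.335-fold to 1.07-fold, and above it in 1 of 5. The median ratio was 9.34 for A-tailed and 0.681 for plain ends. The 375-fold value rests on 71 A-tailed reads in the endogenous file of tU6-wt, all of 7 Us with 1 A. For the plain run of 7 Us, the libraries without mpn1 ran from 0.467% through a median of 0.889% to 2.70% of reads, and the 8 with mpn1 from 0.769% through 1.32% to 2.54%. For the same run with 1 A, the ranges were 1.41% through 1.86% to 4.60% and 0.0125% through 0.0932% to 0.725%. The plain ends overlapped between the sets, and the ends with 1 A did not.

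In the direct pair, mpn1Δ against wt, 3 of the 6 long ends with enough reads (100 over both files) passed the size limit, a 1.5-fold difference with exact 95% intervals apart, and all 3 were higher. That limit was passed by 85.6% of all ends in this comparison, so the count marks nothing particular to long runs. From 6 to 9 Us, the ratio of mpn1Δ to wt declined with length for A-tailed ends. It was 29.6 for 6 Us, 18.9 for 7, 16.4 for 8 and 5.93 for 9, where mpn1Δ had 40 reads and wt 5. For plain ends it was 0.536, 0.682, 0.955 and 0.675 over the same lengths. The decline did not extend to shorter runs. At 4 Us, A-tailed ends held 9.39% of reads in mpn1Δ and 1.69% in wt, a smaller ratio than at 6 Us. At 5 Us they held 38.3% and 1.40%. These intervals and limits cover counting error only, since reads of a PCR without molecular identifiers are not independent molecules.

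For untagged or endogenous U6, the A-tailed fraction was lower at each added U from 7 to 9 in all 5 libraries without mpn1. In the tagged file of mpn1Δ tU6wt the fraction did not fall at each step. In mpn1Δ it was 79.5% of ends with 6 Us, 70.0% with 7, 46.4% with 8, 23.0% with 9 and 16.1% with 10, the last on 56 reads. In rrp6Δ, where A tails were also common, it was 43.7%, 36.8%, 25.5%, 8.41% (107 reads) and 5.88% (17 reads) over the same lengths. In wt it was 6.56%, 7.78%, 4.79%, 3.29% and 12%, the last from 6 of 50 reads. By value alone, the fraction fell from 7 to 8 and from 8 to 9 Us in 10 of 11 untagged libraries, cid16Δ being the exception, and in 15 of 19 files. Exact intervals were apart at both steps in the untagged libraries without mpn1, in rrp6Δ with and without PNK and in wt without PNK. They overlapped at both steps in cid14Δ, cid11Δ and cid12Δ, and from 8 to 9 Us in wt, so no decline beyond counting error was shown there.

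Set against the main ends of 4 to 6 Us, the A-tailed fraction of 7 to 9 Us was lower in 4 of 5 libraries without mpn1, by 11.4 to 20.3 points, and 9.59 points higher in the endogenous file of mpn1Δ tU6-C36A. The mean was 65.7% ± 5.17 against 77.1% ± 8.49 (SD, n = 5), and the exact sign-flip test gave p = 0.125, where the smallest possible is 0.0625. With mpn1 present it was 10.9% ± 12.2 against 9.18% ± 14.9 (SD, n = 8), with an exact sign-flip p of 0.578. The fraction of 7 to 9 Us was the higher in 6 of these 8 libraries. Neither difference passed the threshold of 0.05. The endogenous file of tU6-C36A, at 23.0% against 4.61%, and rrp6Δ, at 35.4% against 45.9%, were the extremes in either direction among these 8. In the tagged files the differences were -3.87 points in tU6-wt, -8.47 in tU6-C36A, -19.1 in mpn1Δ tU6wt and -18.8 in mpn1Δ tU6-C36A.

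The A tails on long runs were mostly a single A, except in tagged U6 of tU6-wt, where 9 of 16 A-tailed reads had 2 As. In mpn1Δ, 5.15% of A-tailed ends with 7 to 9 Us had 2 or more As (95% exact interval 4.92 to 5.38), against 8.27% for 4 to 6 Us. This proportion was lower on the longer runs in 5 of 5 libraries without mpn1 and in 4 of 8 with it. These counts are of untagged or endogenous U6. In cid12Δ the order was the other way, with 20.7% against 12.2%. Of the 4 tagged files, 2 had the lower proportion on the longer runs. That of mpn1Δ tU6-C36A had 8.54% on 7 to 9 Us against 6.95% on 4 to 6. The endogenous file of tU6-C36A listed 3588 reads of 7 Us with 1 A and none with more, although 5.29% of its A-tailed ends with 4 to 6 Us had 2 or more. Whether few amplified molecules lie behind such counts was not tested.

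For runs of 10 or more Us, no difference between libraries with and without mpn1 passed the test. Without mpn1 their shares were 0.00630% in mpn1Δ, 0.00489% in mpn1Δrrp6Δ, 0.00977% in cid14Δmpn1Δ, 0.000490% in the endogenous file of mpn1Δ tU6wt and 0.000672% in that of mpn1Δ tU6-C36A. With mpn1 they ran from 0.000384% in cid16Δ through a median of 0.00499% to 0.0140% in cid14Δ. The sets overlapped, with a ratio of 0.563 and an exact permutation p of 0.428, 0.428 after adjustment. In pairs the share was higher without mpn1 in 1 of 5 (log2 difference -1.51 ± 1.96, SD, n = 5 pairs, exact sign-flip p = 0.125, 0.167 adjusted). A tails on these runs were few, at 9 of 73 reads in mpn1Δ (12.3%), 6 of 75 in wt (8%) and 0 in all 8 files of the tagged strains. The difference over libraries was 2.0 points (exact permutation p = 0.418, 0.428 adjusted), on 2 to 73 such reads per library without mpn1 and 13 to 205 with it.

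Reads that ran on past the T run give a measure of how the run's length is read. Of 3576 such reads, with the run followed by at least 8 bases of the downstream sequence, 94.9% had 9 Ts, 117 had 10 and 47 had 8. Tagged U6 of tU6-wt and tU6-C36A gave 1839 and 980 of the 3576, so the 94.9% mainly describes those files. In the 11 untagged libraries pooled, 520 read-through reads had 9 Ts, 69 had 10 and 40 had 8. Of those with 9 or 10 Ts, 10 made up 11.7% (95% exact interval 9.23 to 14.6). Among the plain ends of the same libraries, 10 Us made up 20.2% of those with 9 or 10 (19.01 to 21.5). In the 4 tagged files pooled the values were 1.45% (1.04 to 1.96) and 18.5% (17.4 to 19.7). File by file, the rate was lower among read-through reads in 12 of the 17 files that held any with 9 or 10 Ts and higher in 5. Of these 5, cid16Δ had 15.6% (8.32 to 25.6) of 77 read-through reads and 8.33% (4.63 to 13.6) of plain ends, with overlapping intervals. In the endogenous file of mpn1Δ tU6-C36A all 6 read-through reads had 10 Ts, against 16% of plain ends (4.54 to 36.1), with intervals apart. The other 3 rested on 6 to 25 read-through reads, at 3 of 11 in rrp6Δ without PNK, 1 of 6 in mpn1Δrrp6Δ and 1 of 25 in tagged U6 of mpn1Δ tU6wt, with overlapping intervals. Read-through reads with 9 Ts numbered 1 to 251 per untagged library, and 1817 and 955 of the 2796 in the tagged files came from tU6-wt and tU6-C36A, so pooled values weight few files. Whether a 10th U was added to the RNA or arose in amplification or reading was not tested.

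Deletion of rrp6 went with more A tails when mpn1 was present, and not on long runs alone. Of ends with 4 to 6 Us, 45.9% were A-tailed in rrp6Δ and 5.02% in wt. Of ends with 7 to 9 Us, 35.4% were A-tailed in rrp6Δ and 7.46% in wt, a difference of 28.0 points that passed the limit for fractions, 5 points with exact intervals apart. Their share of reads, 2.32% against 2.14%, did not pass. Of the 6 long ends with enough reads, 3 were called, all higher, against 50.5% of all ends. Runs of 10 or more Us were at 0.552-fold (95% interval 0.357 to 0.838), on 34 and 75 reads, past the limit. In cells lacking mpn1, the share of 7 to 9 Us was 0.576-fold in mpn1Δrrp6Δ against mpn1Δ, past the limit, and the A-tailed fraction 4.50 points lower, not past it. There 4 of 8 long ends were called, all lower, against 43.1% of all ends.

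With cid14 deleted and mpn1 present, 10.3% of ends with 7 to 9 Us were A-tailed, against 7.46% in wt, and their share of reads was 0.802-fold. Neither passed the limit, and 1 of 5 long ends was called, higher, against 54.7% of all ends. In cid14Δmpn1Δ, 61.1% of ends with 7 to 9 Us were A-tailed against 68.0% in mpn1Δ, a difference of -6.89 points past the limit. The share was 0.615-fold, also past it, with 2 of 6 long ends called, both lower, against 65.3% of all ends. Long runs thus still carried As in most reads where both genes were deleted. Runs of 10 or more Us were at 1.61-fold in cid14Δ against wt (1.13 to 2.28) and 1.55-fold in cid14Δmpn1Δ against mpn1Δ (1.04 to 2.29), neither past the limit, as the exact intervals of the shares overlapped.

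The 3 other nucleotidyltransferase deletions had fewer long runs than wt. The share of 7 to 9 Us was 0.417-fold in cid11Δ, 0.684-fold in cid12Δ and 0.424-fold in cid16Δ. All but cid12Δ passed the limit, and their A-tailed fractions, 3.51%, 4.01% and 2.88% against 7.46% in wt, did not. The limit of 5 points is wide beside 7.46%. As ratios to wt these fractions were 0.470, 0.537 and 0.386, with exact intervals apart. All 6 long ends with enough reads were called in cid11Δ, all lower, against 76.5% of all ends. In cid12Δ 4 of 8 were called, 1 higher and 3 lower, against 74.9%. In cid16Δ all 5 were called, all lower, against 78.3%. As these libraries belong to another set than wt by their undetermined bases, the deletions and the set cannot be told apart in these values.

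Comparison among the 3, which share that set, set cid16Δ apart at the longest runs. Over 10 or more Us, cid16Δ had 14 reads, or 0.000384%, cid11Δ 116 (0.00415%) and cid12Δ 205 (0.00517%). The share in cid16Δ was 0.0925-fold that in cid11Δ (95% interval 0.0490 to 0.162) and 0.0743-fold that in cid12Δ, while the share of 7 to 9 Us was 1.02-fold that in cid11Δ and 0.619-fold that in cid12Δ. No run in cid16Δ exceeded 10 Us, against 16 in cid11Δ and 18 in cid12Δ. The ratio of cid16Δ to wt was lower at each length, from 0.437 at 7 Us through 0.311 at 8 and 0.243 at 9 to 0.0660 at 10. The comparison of the 3 with each other was chosen after these values were seen, and each is 1 library, so no test was possible.

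Long ends were more frequent without PNK in wt, and in rrp6Δ their shares did not pass the limit. The share of 7 to 9 Us was 5.76% without PNK and 2.14% with it in wt, a ratio of 2.69 (95% interval 2.65 to 2.74). That of 10 or more Us was 0.0517% and 0.00873%, a ratio of 5.92 (4.66 to 7.62). In rrp6Δ the ratios were 0.905 (0.884 to 0.926) and 1.37 (0.856 to 2.22), neither past the limit. All 8 long ends tested were called in wt, all higher, against 92.1% of all ends, and 1 of 6 in rrp6Δ, lower, against 42.2%. Since wt without PNK and wt with PNK lie in different sets by their undetermined bases, treatment and set cannot be told apart there, whereas both rrp6Δ libraries lie in the same set.

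In both strains the ratio of plain ends without PNK to those with it was larger at each added U from 6 to 9. In wt it was 1.75 at 6 Us, 2.47 at 7, 3.50 at 8, 5.85 at 9 and 5.79 at 10. In rrp6Δ it was 0.486, 0.608, 0.807, 1.23 and 1.83 over the same lengths, the last on 27 and 16 reads, and 0.669 at 11 on 8 and 13 reads. The A-tailed ends of rrp6Δ kept a narrower range, 1.42 at 6 Us, 1.40 at 7 and 1.29 at 8, with 1.93 at 9 on 16 and 9 reads. The A-tailed fraction of 7 to 9 Us was accordingly 54.5% without PNK and 35.4% with it in rrp6Δ, past the limit, and 10.6% and 7.46% in wt, not past it. The fraction of 4 to 6 Us was also higher without PNK, at 70.2% and 45.9% in rrp6Δ and 16.8% and 5.02% in wt. For 10 or more Us in wt it was 1.26% without PNK and 8% with it, past the limit on 9 and 6 A-tailed reads.

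Summed over 7 to 9 Us, the A-tailed fraction was lower in tagged than in endogenous U6 of the same cells, and single lengths did not all follow. In tU6-wt, 0.0659% of ends with 7 to 9 Us were A-tailed in tagged and 0.465% in endogenous U6. In tU6-C36A the values were 2.53% and 23.0%. In mpn1Δ tU6wt they were 49.5% and 62.0%, and in mpn1Δ tU6-C36A 44.5% and 73.6%. The fraction was lower in the tagged file in 4 of 4 strains, by 15.6 ± 12.2 points (SD, n = 4). The exact sign-flip test gave p = 0.125, the smallest that 4 strains allow, and 0.5 after adjustment. The run of 7 Us, which holds most of these reads, was lower in the tagged file in all 4 strains. At 8 Us the order was reversed in mpn1Δ tU6wt, with 62.5% A-tailed in tagged and 10.9% in endogenous U6, and in tU6-C36A, with 0.615% and 0.0945%. At 9 Us it was reversed in mpn1Δ tU6wt, with 10.1% of 79 reads and 0% of 29. The share of 7 to 9 Us was higher in the tagged file of 2 of 4 strains (2.0% against 2.70%, 4.09% against 2.77%, 6.07% against 7.59% and 6.13% against 2.70%, in the same order). The log2 difference was 0.25 ± 0.77 (SD, n = 4, exact sign-flip p = 0.625).

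Runs at and beyond the encoded limit stood out in 3 of the 4 tagged files. The plain run of 9 Us held 3020 reads in tagged and 66 in endogenous U6 of tU6-wt, a ratio of shares of 21.3 (16.7 to 27.6). In tU6-C36A tagged U6, the plain runs of 9, 10 and 11 Us held 167, 165 and 383 reads, so that the counts went up past the encoded length, while its endogenous file held 58, 4 and 9. In mpn1Δ tU6-C36A the plain run of 10 held 233 reads in tagged and 4 in endogenous U6. The share of 10 or more Us was 0.0380% in tagged and 0.0138% in endogenous U6 of tU6-wt, 0.0968% and 0.00231% in tU6-C36A, and 0.0234% and 0.000672% in mpn1Δ tU6-C36A. In mpn1Δ tU6wt it rested on 1 and 2 reads. Over the 4 strains the log2 difference was 2.44 ± 3.59 (SD, n = 4), with an exact sign-flip p of 0.375.

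The change labelled C36A in tagged U6 went with a larger class of long runs when mpn1 was present, and not of long runs alone. Ends with 6 Us held 26.9% of reads in tagged C36A U6 and 18.1% in tagged wild-type U6. At 4 Us the shares were 6.04% and 4.47%, and at 5 Us 40.0% and 64.0%. Against tagged wild-type U6, the share of 7 to 9 Us was 2.05-fold and that of 10 or more Us 2.55-fold (2.25 to 2.89), both past the limit. Within that class the plain runs of 7 and 8 Us were at 2.28-fold and 2.25-fold, and the plain run of 9 at 0.114-fold (0.0966 to 0.133). Of 6 long ends, 5 were called, 4 higher and 1 lower, against 97.2% of all ends. The A-tailed fraction of 7 to 9 Us was 2.53% against 0.0659%, not past the limit of 5 points, which is wide beside fractions this low. As a ratio it was 38.3 (23.4 to 67.4), on 612 and 16 A-tailed reads. Without mpn1 the share of 7 to 9 Us was 1.01-fold and the A-tailed fraction 5.04 points lower, past the limit. There 6 of 8 long ends were called, 5 higher and 1 lower, against 90.6% of all ends. Runs of 10 or more Us stood at 236 reads and 1 read, a ratio of 223 (39.7 to 8853), the plain run of 10 giving 233 of the 236.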

How the data were processed

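The deposited files list raw read counts per distinct 3′ end sequence after the constant part of U6, as the authors counted them. The submitters' processing notes name CASAVA 1.8.2 and cutadapt. For filters, the separation of tagged from endogenous U6 and a genome build, the sources used here give nothing. The form of U6 in the tagged strains was taken from the file names. The extract protocol in the labels gives 3 µg of RNA ligated to 120 pmol of adapter. Ends were matched by their letters in Python 3.11.15 with NumPy 2.4.6 and SciPy 1.17.1, and the T run was located in RefSeq ASM294v3. Counts were divided by all reads with an end sequence, so the line without sequence (0.112% to 6.78% of reads per file) was left out. Exact (Clopper-Pearson) 95% intervals cover counting error. A count of 0 allows a share of 7.56e-05% to 0.000735% per file, taken as 3 reads.

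Libraries with and without mpn1 were compared by exact permutation tests, pairs and tagged against endogenous files by exact sign-flip tests, all two-sided, shares on the log2 scale, with Benjamini-Hochberg adjustment over 4 outcomes. Groups of 1 library were compared by size limits only, a 1.5-fold difference in share or 5 percentage points in A-tailed fraction, with intervals apart and at least 100 reads over both files. The counting of classes and the permutation test were checked on simulated data that did not model strain differences, library sets or amplification. Ends named were the plain and 1-A ends of 7 to 10 Us, those with 0.1% of reads or more in any file, and the commonest and longest runs of 10 or more Us. Members and comparisons were chosen with earlier results of these data known. Alternatives were other denominators, at least 10 reads per end, 7 and 8 Us alone, 11 or more Us, A tails of at least 2 As, percentage points, and subsets of libraries. The choice of 7 and 8 Us alone had assumed that an A might be encoded after the run, which the reference does not bear out.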

Additional observations from a re-analysis of the deposited data

Results flagged for a closer look

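By value alone, the A-tailed fraction of runs of 10 or more Us in wt, 8% (6 of 75 reads), was flagged as apart from the other 7 PNK-treated libraries with mpn1. Of 12 sets of values examined in this way, 1 held such a value, and chance marks about 1 in 20. The exact interval of the wt fraction, 2.99% to 16.6%, overlapped that of each of the other 7 libraries. Its reads are thus too few to set wt apart.

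In 6 of 16 pairs of contrasts, the same change went in opposite directions in 2 settings. Each arm is 1 library, so none of these differences was tested. Leaving out PNK moved the log2 share of 7 to 9 Us by 1.43 in wt and by -0.14 in rrp6Δ. It moved the A-tailed fraction of 10 or more Us by -6.74 points in wt and by 6.36 points in rrp6Δ, on 9, 6, 4 and 1 A-tailed reads. Deleting rrp6 moved the log2 share of 7 to 9 Us by 0.12 with mpn1 and by -0.79 without it. It moved the A-tailed fraction of the same ends by 28.0 points beside wt and by -4.50 beside mpn1Δ. Deleting cid14 moved that fraction by 2.84 points beside wt and by -6.89 beside mpn1Δ. The change C36A in tagged U6 moved it by 2.46 points where mpn1 was present and by -5.04 where it was deleted.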

How the results depend on the processing

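Pairs were formed by background or strain alone, since the labels carry no replicate numbers. Of 62 results under 319 alternatives, 12 values reversed their direction, 16 lost and 4 gained their call. Among the 6 untagged libraries of 3 backgrounds the mpn1 difference was 0.60 (log2) for the share of 7 to 9 Us and 46.5 points for their A-tailed fraction, both with p = 0.1, the smallest possible there by permutation. Without cid11Δ, cid12Δ and cid16Δ the share difference was 0.65. Leaving out 1 library at a time gave 0.81 to 1.20 for that share and 52.8 to 58.3 points for that fraction. It gave -1.33 to -0.24 for the share of 10 or more Us and -0.0772 to 3.00 points for their A-tailed fraction, negative without mpn1Δ. Leaving out 1 strain gave -0.064 to 0.47 for the share of 7 to 9 Us in tagged minus endogenous U6, negative without mpn1Δ tU6-C36A. For 7 to 9 against 4 to 6 Us with mpn1 it gave -0.687 to 3.44 points, negative without tU6-C36A, and untagged libraries alone, added after seeing the data, gave -0.251.

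Counting A tails of at least 2 As, most A-tailed differences shrank, since most tails have 1 A. Over libraries, the mpn1 difference at 10 or more Us was -0.0610 points, and over pairs 0. Tagged minus endogenous U6 was 0.395 points, 7 to 9 against 4 to 6 Us with mpn1 was -0.198, and C36A without mpn1 was 3.12. The same count gave 3.29 for mpn1Δ against wt, 1.33 for rrp6Δ against wt, -1.34 for cid14Δmpn1Δ against mpn1Δ, 0.896 for PNK in rrp6Δ and 0 for PNK in wt at 10 or more Us. That last fraction was also 0 with at least 10 reads per end and 0.673 at 11 or more Us. Runs of 7 and 8 Us alone gave -4.78 points for C36A without mpn1.

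At 11 or more Us, the log2 share differences were -0.27 for rrp6Δ, -0.73 for cid11Δ and -0.38 for cid12Δ against wt, and 1.505 for C36A without mpn1, none past the limit. With at least 10 reads per end, those of 10 or more Us were -0.76 for rrp6Δ and -0.57 for cid12Δ, no longer past it, and 0.89 for cid14Δ, now past it. As a share of ends with at least 5 Us, cid14Δ had 1.03 and cid14Δmpn1Δ 0.84 for 10 or more Us, and cid12Δ -0.88 for 7 to 9 Us, all now past the limit, and cid14Δmpn1Δ -0.49 for 7 to 9 Us, no longer past it. The causes were not tested. The alternatives of 11 or more Us and of at least 10 reads gave no value over libraries, pairs or strains for the share of 10 or more Us, where a file had no read left. Depth limits the ends with 10 or more Us, which rest on 1 to 713 reads per file.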
